A study of Mus musculus and Homo sapiens with 8 samples.

Results

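The transcripts of 10 DNA repair genes were followed in HepG2 cells, a human liver carcinoma line, after exposure to arsenite. The genes were PARP1, XPA, XPC, OGG1, ATM, ATR, BRCA1, BRCA2, DDB2 and ERCC1, taken by their Ensembl identifiers from the 60675 rows of a table of read counts per gene. The rule that lists them names functions and identifiers and uses no measured value, but the list was drawn up with earlier results of these data known. Sequencing libraries were made from total RNA of 2 HepG2 samples kept with arsenite and of 2 kept with water as the control. All were kept so for 24 h, at 25 population doublings. The labels give 5 nM for the arsenite samples and repeat that figure on the water samples. The series also holds 4 samples of the mouse line NIH3T3, which were not used for these genes, because the human identifiers do not belong to the NIH3T3 values.

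Arsenite is the trivalent oxyanion of arsenic. It binds protein thiols, and zinc fingers, in which cysteines hold a zinc ion, are among its known targets. PARP1 and XPA are repair proteins whose zinc fingers are known to bind trivalent arsenic, and BRCA1 carries a zinc-binding RING domain. The other members act in the same pathways: nucleotide excision repair cuts out bulky lesions, base excision repair removes oxidised bases, and the kinases ATM and ATR signal broken or stalled DNA. The values below are RNA levels and say nothing of zinc content or enzyme activity.

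HepG2 libraries held 27192636 and 27361110 counts with arsenite, against 26965049 and 27481613 counts in the controls. The 10 transcripts together took 16958 and 17996 counts with arsenite and 17738 and 17084 in the controls, so their sum overlapped between the groups. PARP1 alone made up 53.8% and 51.7% of that sum with arsenite and 42.3% and 43.1% in the controls. The remaining 9 transcripts summed to 7838 and 8686 counts with arsenite and 10240 and 9717 in the controls. That sum mixes transcripts that rose and fell, as given below, and raw counts weigh long transcripts more. Whether replicate samples were separate cultures is not stated in the labels. The p-values therefore cover only the spread between these samples, and this may be technical. In edgeR's fit, used below, that spread came from the trend over genes of like abundance, so a gene's own replicates did not set it. The defining liver markers could not be checked, because the tables pair no identifier with a symbol.

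The repair transcripts moved in opposite directions. Transcripts of PARP1 and DDB2 rose with arsenite, those of XPA, ATM, ATR, BRCA1 and BRCA2 fell, and those of OGG1, XPC and ERCC1 did not pass the test. All 10 passed the filter on low counts, and 7 of them were called, that is, had a Benjamini-Hochberg adjusted p under 0.05 in the edgeR quasi-likelihood fit to all 14389 genes that passed it. These counts stand beside a high background, since 30.6% of all genes tested were called between the groups. Of the 10 members 2 were called higher, against 11.8% of all genes, and 5 were called lower, against 18.8% of all genes. The median log2 fold change of the members was -0.20, beside -0.02 over all genes tested. In bulk RNA, fewer cells that express a gene and less RNA per cell cannot be told apart.

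**Figure D1:**
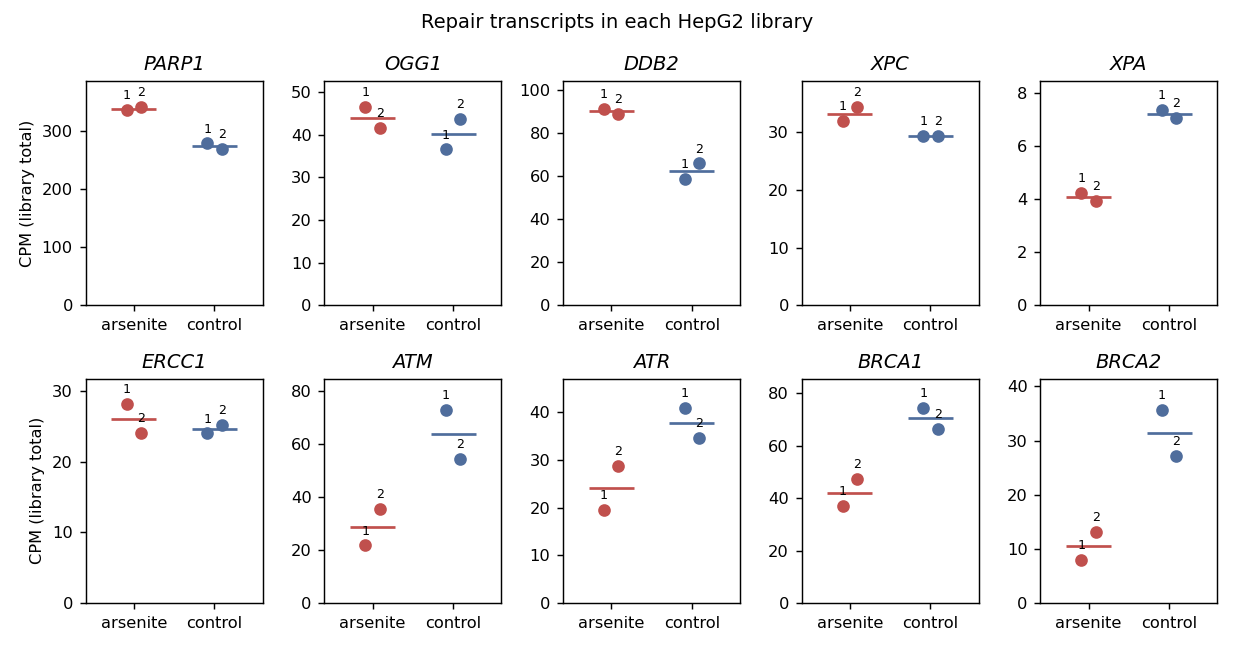
Levels of the 10 repair transcripts as CPM, the counts of a gene scaled to the total of its library, with arsenite at the left of each panel and control at the right. Each point is 1 library with its replicate number, and the line is the group mean. PARP1 and DDB2 lie higher with arsenite, XPA, ATM, ATR, BRCA1 and BRCA2 lie lower, and OGG1 and ERCC1 overlap.

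PARP1 (ENSG00000143799), the polymerase that marks DNA strand breaks with poly(ADP-ribose), was the most abundant of the 10. It had 335 and 340 CPM with arsenite, against 278 and 268 CPM in the controls. Both arsenite libraries lay above both controls, and the replicates differed by far less than the groups. The means were 338 ± 3.45 CPM with arsenite and 273 ± 7.07 CPM in the controls (SD, n = 2 each). The fitted log2 fold change was 0.39 (SE 0.16), a 1.31-fold rise with a 95% interval of 1.06 to 1.62, and the adjusted p was 0.0465 in edgeR's test (Benjamini-Hochberg). The 4 ratios of an arsenite to a control library ran from 1.21 to 1.27 on the CPM scale.

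The PARP1 call was marginal. In edgeR's fit the spread of every gene came from the trend over genes of like abundance, so the close agreement of the PARP1 replicates did not enter. With libraries scaled to their totals alone, the PARP1 log2 fold change was 0.31 and the call was lost (adjusted p = 0.124, edgeR). It was also lost when any one of the 4 libraries was left out: the adjusted p was 0.235 without arsenite 1, 0.103 without arsenite 2, 0.185 without control 1 and 0.190 without control 2 (edgeR). PARP1 stayed above control in all of these fits, with log2 fold changes of 0.31 to 0.45.

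OGG1 (ENSG00000114026), the glycosylase that removes 8-oxoguanine from oxidised DNA, is the base excision member. It had 46.4 and 41.5 CPM with arsenite, against 36.5 and 43.7 CPM in the controls. The groups overlapped, since control 2 lay between the arsenite libraries. The log2 fold change was 0.22, with a 95% interval of -0.14 to 0.57 (adjusted p = 0.376, edgeR, Benjamini-Hochberg). The interval allows a change between a 1.49-fold rise and a small fall to 0.909 of the control level. An antisense neighbour shares sequence with some OGG1 transcripts, and the TruSeq RNA kit v2 used here does not mark strand, so part of these counts may belong to the neighbour.

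Among the 4 nucleotide excision members, DDB2 rose, XPA fell, and XPC and ERCC1 did not pass the test. DDB2 (ENSG00000134574), which recognises ultraviolet lesions in chromatin and is a known p53 target, had 91.2 and 88.8 CPM with arsenite, against 58.4 and 65.7 CPM in the controls. Both arsenite libraries were above both controls. DDB2 rose 1.54-fold (95% interval 1.22 to 1.94; log2 fold change 0.62, SE 0.17; adjusted p = 0.00257, edgeR, Benjamini-Hochberg). Of all genes tested, 5.78% had a higher log2 fold change. The call was lost without arsenite 1 (adjusted p = 0.106) and without control 1 (adjusted p = 0.091), at log2 fold changes of 0.61 and 0.55 (edgeR).

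XPA (ENSG00000136936), the zinc-finger protein that verifies the lesion and holds the excision complex together, was the least counted member. It had 115 and 108 counts with arsenite, or 4.23 and 3.95 CPM, against 199 and 194 counts in the controls, or 7.38 and 7.06 CPM. The replicates of each group lay close together and the groups stood well apart. XPA fell 1.67-fold, at a log2 fold change of -0.74 (SE 0.22, 95% interval -1.17 to -0.30; adjusted p = 0.00583, edgeR, Benjamini-Hochberg). The call was lost without arsenite 1 (log2 fold change -0.78, adjusted p = 0.109) and without arsenite 2 (-0.62, adjusted p = 0.131, edgeR).

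XPC (ENSG00000154767), which detects helix distortion and starts excision across the genome, had 32.0 and 34.5 CPM with arsenite, against 29.4 and 29.3 CPM in the controls. The arsenite libraries were the higher ones, but the difference did not pass the test, at a log2 fold change of 0.26 with a 95% interval of -0.10 to 0.63 (adjusted p = 0.292, edgeR, Benjamini-Hochberg). ERCC1 (ENSG00000012061), the partner of the XPF nuclease that cuts on the 5′ side of the lesion, had 28.2 and 24.0 CPM with arsenite, against 24.0 and 25.2 CPM in the controls. The groups overlapped, and the log2 fold change was 0.17 with a 95% interval of -0.20 to 0.54 (adjusted p = 0.528, edgeR, Benjamini-Hochberg). The end of ERCC1 overlaps an antisense gene, so its counts carry the same uncertainty as those of OGG1. Such overlaps were not looked up for the other members, so the same may hold for them.

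Ratios of counts within a library do not depend on how libraries are scaled. The ratio of XPC to XPA counts was 7.57 and 8.74 with arsenite, against 3.99 and 4.15 in the controls. The ratio of DDB2 to XPA was 21.6 and 22.5 with arsenite, against 7.91 and 9.31 in the controls. For ERCC1 to XPA it was 6.66 and 6.09 with arsenite, against 3.26 and 3.57 in the controls. In each of these ratios both arsenite libraries lay above both controls, so XPA transcripts were scarcer relative to the other excision members. All of these ratios share XPA, which was lower in both arsenite libraries, as were 41.2% of all genes tested. XPC and DDB2 were higher in both arsenite libraries. For them the order of the ratios follows from the levels already given and is no further evidence. With 2 libraries against 2, an exact permutation test of a ratio cannot give a 2-sided p below 0.333, so none is given.

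The damage kinases fell together. ATM (ENSG00000149311), the kinase activated by broken DNA ends, had 21.7 and 35.5 CPM with arsenite, against 72.9 and 54.3 CPM in the controls. The groups did not overlap, but libraries within a group differed 1.64-fold with arsenite and 1.34-fold in the controls. This spread of ATM itself did not enter the p-value, SE or 95% interval of edgeR's fit. ATM fell 2.11-fold, at a log2 fold change of -1.08 (SE 0.18, 95% interval -1.43 to -0.72; adjusted p = 2.64e-07, edgeR, Benjamini-Hochberg). Without arsenite 1, its lowest library, the log2 fold change was -0.75 and the call was just lost (adjusted p = 0.0587, edgeR).

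ATR (ENSG00000175054), the kinase that answers single-stranded DNA at stalled forks, had 19.6 and 28.7 CPM with arsenite, against 40.9 and 34.7 CPM in the controls. Arsenite 1 was again the lowest library and control 1 the highest. ATR fell 1.48-fold, at a log2 fold change of -0.57 (SE 0.19, 95% interval -0.93 to -0.20; adjusted p = 0.0126, edgeR, Benjamini-Hochberg). The call was lost without arsenite 1 (-0.30, adjusted p = 0.543) and without control 1 (-0.42, adjusted p = 0.207, edgeR). The ratio of ATR to ATM counts was 0.905 and 0.809 with arsenite, against 0.562 and 0.639 in the controls, so ATM was the more reduced of the kinases in both arsenite libraries.

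The recombination genes fell as well, BRCA2 most of all 10 members. BRCA2 (ENSG00000139618), a protein of homologous recombination, had 7.94 and 13.2 CPM with arsenite, against 35.6 and 27.1 CPM in the controls. Its highest arsenite library held less than the lowest control, and the 4 ratios of an arsenite to a control library ran from 0.223 to 0.486. The arsenite libraries differed 1.66-fold, and for BRCA2 too this spread did not enter the p-value, SE or 95% interval of edgeR's fit. BRCA2 fell 2.81-fold, at a log2 fold change of -1.49 (SE 0.20, 95% interval -1.88 to -1.10; adjusted p = 1.64e-11, edgeR, Benjamini-Hochberg). Of all genes tested, 0.799% had a lower log2 fold change. A call with a fall of more than 2-fold was made for 4.62% of all genes, and among the members for BRCA2 and ATM. BRCA2 was the one member called whichever library was left out, at log2 fold changes of -1.83 to -1.16 and adjusted p-values of 4.25e-13 to 0.00297 (edgeR).

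BRCA1 (ENSG00000012048), a ubiquitin ligase that works with BARD1 in end resection and recombination, had 37.0 and 47.2 CPM with arsenite, against 74.6 and 66.5 CPM in the controls. Both arsenite libraries were below both controls. BRCA1 fell 1.58-fold, at a log2 fold change of -0.66 (SE 0.18, 95% interval -1.01 to -0.32; adjusted p = 0.00167, edgeR, Benjamini-Hochberg). The call was lost without arsenite 1 (-0.49, adjusted p = 0.254) and without control 1 (-0.56, adjusted p = 0.0757, edgeR). The ratio of BRCA1 to BRCA2 counts was 4.66 and 3.58 with arsenite, against 2.09 and 2.45 in the controls, so BRCA2 transcripts lost more than those of BRCA1.

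**Figure D2:**
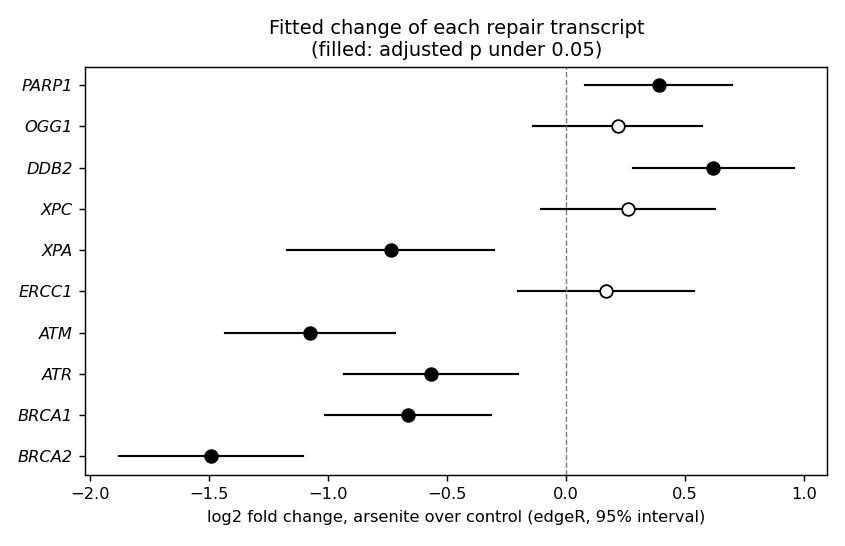
Log2 fold change of each repair transcript, arsenite over control, from edgeR's quasi-likelihood fit on 2 libraries a group, with the 95% interval as a line. Filled points passed an adjusted p of 0.05 over all genes tested; PARP1 at 0.39 and DDB2 at 0.62 lie above 0, and BRCA2 at -1.49 lies lowest.

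Set per gene length, the order of the transcripts changed with treatment. Division by length does not remove the trend of levels with length, described below, which differed between libraries. RPKM here is the CPM of a library divided by the gene's length in kilobases. That length was recovered from the deposited RPKM and is not the measured length of the expressed transcript, so the order between genes depends on it. It was 47.1 ± 0.481 RPKM for PARP1 with arsenite and 38.1 ± 0.986 RPKM in the controls (SD, n = 2 each). DDB2 was next in both groups, at 18.4 ± 0.340 RPKM with arsenite and 12.7 ± 1.06 RPKM in the controls. BRCA1 had 4.72 ± 0.807 RPKM with arsenite, where its libraries overlapped those of OGG1 and ERCC1 and lay below those of XPC, and 7.91 ± 0.639 RPKM in the controls, where it came next after DDB2 and above XPC. XPC had 6.93 ± 0.364 RPKM with arsenite and 6.12 ± 0.0172 RPKM in the controls.

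At the lower end, BRCA2 had 0.861 ± 0.303 RPKM with arsenite, below XPA at 2.23 ± 0.109 and ATR at 1.93 ± 0.516 RPKM. In the controls BRCA2 had 2.56 ± 0.487 RPKM and could not be told from ATM at 2.85 ± 0.589 or ATR at 3.03 ± 0.354 RPKM, whose libraries overlapped with it. ATM had 1.28 ± 0.438 RPKM with arsenite, which overlapped both ATR and BRCA2. XPA, at 3.94 ± 0.124 RPKM in the controls, stood above these kinases there, but with arsenite its libraries overlapped those of ATR. OGG1 and ERCC1 overlapped each other in both groups, at 5.03 ± 0.396 and 4.68 ± 0.523 RPKM with arsenite and 4.59 ± 0.581 and 4.41 ± 0.146 RPKM in the controls.

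**Figure D3:**
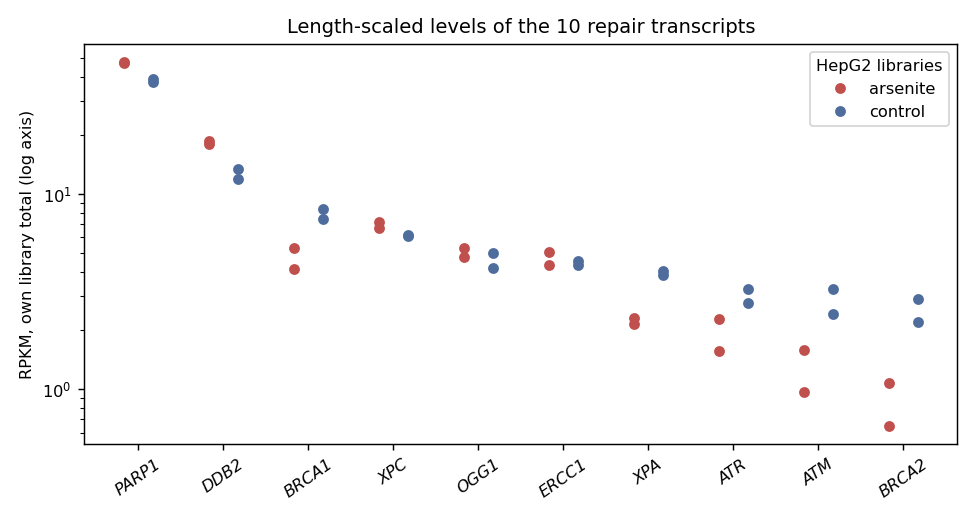
RPKM on each library's own total, on a log axis, for the 10 repair transcripts ordered by their control mean. Each point is 1 HepG2 library, arsenite at the left of each pair; PARP1 lies highest in both groups, and the lowest point is BRCA2 in arsenite 1, at 0.647 RPKM.

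The 4 kinase and recombination transcripts shared a pattern among libraries. Their summed level was 86.2 and 125 CPM with arsenite, against 224 and 183 CPM in the controls. Each of ATM, ATR, BRCA1 and BRCA2 was lowest in arsenite 1 and highest in control 1. The share of all genes tested with this order was not counted, so it may be common. The excision members together, XPA, XPC, DDB2 and ERCC1, summed to 156 and 151 CPM with arsenite, against 119 and 127 CPM in the controls. That sum lacked such a spread between the arsenite libraries. DDB2 was its largest part, at 91.2 and 88.8 CPM with arsenite and 58.4 and 65.7 CPM in the controls. XPA fell, and XPC and ERCC1 did not pass the test, so the excision members did not rise as a group.

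The 4 also share length, and length moved with the libraries. ATM at 22318 bp, ATR at 12495 bp, BRCA2 at 12272 bp and BRCA1 at 8922 bp were the longest members, ahead of OGG1 at 8733 bp, against a median of 4461 bp over all genes tested. These gene lengths were recovered from the deposited RPKM, and the transcripts expressed in HepG2 may be shorter. Across genes, Spearman's rho between length and a library's deviation in log2 CPM from the gene's mean was -0.334 in arsenite 1 and 0.082 in arsenite 2, against 0.208 in control 1 and 0.124 in control 2. Among genes at least as long as OGG1, 29.4% were called lower and 7.52% higher, against 17.1% lower and 12.5% higher among shorter genes. Of the members at least as long as OGG1, ATM, ATR, BRCA1 and BRCA2 were called lower and OGG1 was not called. Among the shorter ones XPA, the shortest at 1833 bp, was called lower, and PARP1 and DDB2 were called higher. XPC and ERCC1, also shorter, were not called. Whether length lies behind any of these changes was not tested.

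In a fit that took out each library's trend with length, ATM, BRCA1 and BRCA2 were still called lower, at log2 fold changes of -0.78, -0.50 and -1.27 (adjusted p = 1.64e-05, 0.00587 and 1.27e-10, edgeR). ATR was not, at -0.34 (adjusted p = 0.0932). XPA stayed lower at -0.82 (adjusted p = 0.000928), and PARP1 and DDB2 stayed higher at 0.51 and 0.67 (adjusted p = 0.00255 and 0.000113). OGG1 passed the threshold in that fit alone, at 0.38 (adjusted p = 0.0435, edgeR). In that fit 3 of the 10 members were called higher, against 17.4% of all genes, and 4 were called lower, against 17.9%. This step also removes a trend with length that arsenite itself may cause, and these cannot be told apart here.

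**Figure D4:**
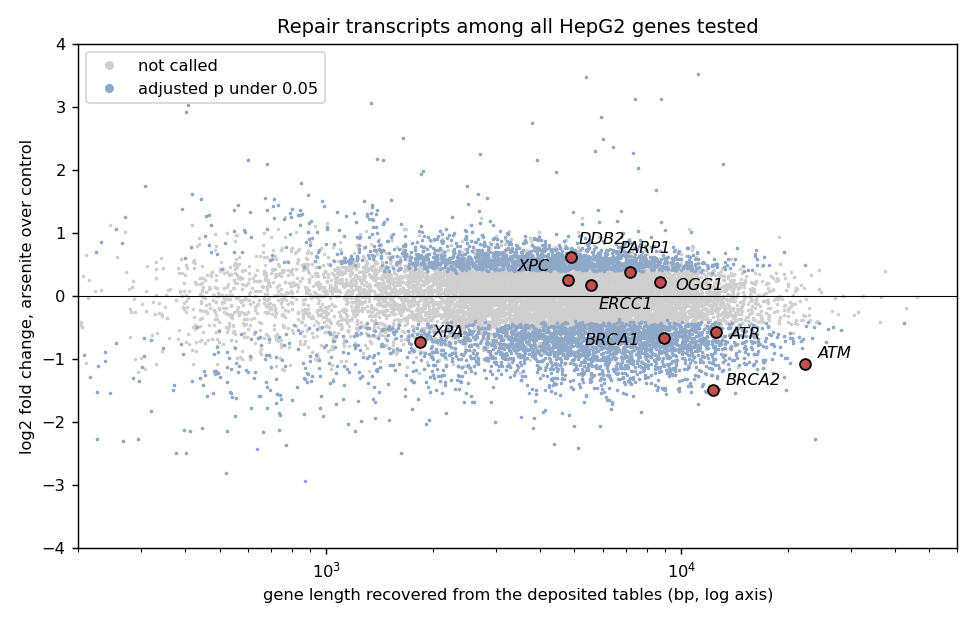
Log2 fold change, arsenite over control, against gene length on a log axis for all HepG2 genes tested with a recovered length, with the 10 repair transcripts in red. Blue points passed an adjusted p of 0.05, and 83 genes lie outside the axes; ATM, ATR, BRCA1 and BRCA2 are long and below 0, and OGG1 is long and above 0.

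The groups did not overlap in CPM for 8 of the 10 members. The same held for 66.7% of all genes tested, so this arrangement is common in these libraries. PARP1, DDB2 and XPC were higher in both arsenite libraries than in both controls, as were 25.5% of all genes, and XPA, ATM, ATR, BRCA1 and BRCA2 were lower in both, as were 41.2% of all genes. The direction of every member's fold change was the same in the 12 alternative fits run. These fits reuse the same 4 libraries, and where the groups do not overlap they could hardly reverse a direction. The calls were less stable. Without arsenite 1, BRCA2 was the only member called, where 5.63% of all genes tested were called. Without control 1, BRCA2, ATM and XPA were called, beside 9.25% of all genes. Without arsenite 2, ATM, ATR, BRCA1, BRCA2 and DDB2 were called, beside 19.3% of all genes. Without control 2 these and XPA were called, beside 30.3% of all genes.

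**Figure D5:**
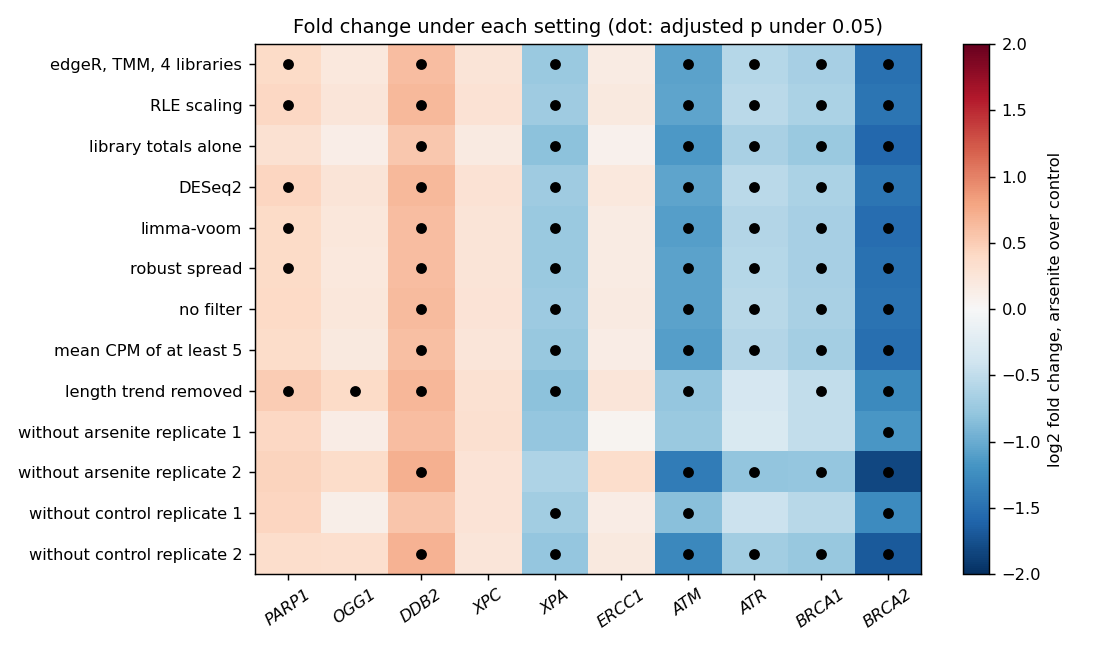
Log2 fold change, arsenite over control, of the 10 repair transcripts (columns) under edgeR's fit to the 4 libraries and 12 alternatives (rows), red for higher and blue for lower with arsenite. A dot marks an adjusted p under 0.05; BRCA2 has one in every row, and XPC and ERCC1 have none.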

How the data were processed

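Total RNA of 8 samples was made into TruSeq libraries, per the labels' protocols. Build GRCh38 and the tools featureCounts 1.4.6-p4, STAR 2.4.1d and bcl2fastq 1.8.4 are listed with no role in the submitters' processing notes. The authors deposited raw counts per gene and RPKM. In the NIH3T3 columns the first 12946 rows come again after row 47729, and these columns were not used. The authors' RPKM divisor cycles over 14 rows. Of 43288 HepG2 values above 1 RPKM, 43287 were rebuilt within 0.1% or 0.001 RPKM, and gene lengths came from this relation. The divisors and lengths were themselves derived from HepG2 values, so this check is not independent. RPKM printed here were computed from the counts and the library's own total.

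The 4 HepG2 libraries were fitted with edgeR 4.0.16 under R 4.3.3: filterByExpr, TMM, quasi-likelihood test, 2-sided, Benjamini-Hochberg over all genes at 0.05. CPM used library totals. The fit was tested on simulated counts of 14389 genes, with 50 genes changed at each size. It recovered 6% of changes of 1.25-fold, 22% of 1.5-fold, 80% of 2-fold and 94% of 4-fold. Of 108 calls, 7 were false. Far fewer genes changed there than were called in the data, and the simulated spread followed the trend alone. These rates therefore need not hold for the real libraries. Alternatives used RLE scaling, library totals alone, DESeq2 1.42.0, voom (limma 3.58.1), robust spread, no filter, a mean CPM of at least 5, an offset for length (loess, span 0.5) and each library left out, the lone sample then taking its spread from the other group.

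The members and lists were chosen with earlier results of these data known. All 10 members are named; their symbols come with the list of identifiers. Lists of other repair genes, p53 targets, proliferation genes and cell type markers were not run, because the name tables used here match 0 of the identifiers. Sequences were not used here. Replicate numbers follow accession order and pair no samples.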

Additional observations from a re-analysis of the deposited data

How the results depend on the processing

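No paired analysis was possible because the labels give no replicate numbers that the groups share. Over 12 alternatives, all drawn from the same libraries and so little able to reverse a direction, none of the 10 members changed direction. XPC, ERCC1 and BRCA2 kept their side of the threshold in all 12. Counts of called genes were 3726 to 5062 in the 8 alternatives with all libraries and 844 (without arsenite 1) to 4503 (without control 2) with 1 left out, against 4397; without control 1 it was 1378 and without arsenite 2 it was 2879. Scaled to library totals, 1132 were higher and 3318 lower, against 1693 and 2704; with the length trend removed, 2495 and 2567; in DESeq2, 1762 and 1964. Called members numbered 6 or 7 with all libraries and 1 to 6 with 1 left out, against 7. PARP1 lost its call with library totals (log2 fold change 0.31, adjusted p = 0.124, edgeR), no filter (0.40, 0.0643) and a mean CPM of at least 5 (0.37, 0.0587), ATR lost its call with the length trend removed (-0.34, 0.0932), and OGG1 gained one (0.38, 0.0435). With 1 library left out, log2 fold changes ran from 0.35 to 0.45 for PARP1, -0.78 to -0.62 for XPA, 0.55 to 0.71 for DDB2, -1.40 to -0.75 for ATM, -0.79 to -0.30 for ATR, -0.77 to -0.49 for BRCA1, 0.11 to 0.37 for OGG1, 0.25 to 0.32 for XPC and 0.06 to 0.35 for ERCC1. Fewer samples entered these fits. The lists of other repair genes could not be run under any setting.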

Other observations

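The deposited RPKM of these genes do not follow their counts from library to library. For DDB2 the authors' deposited table gives 22.5 and 25.7 RPKM with arsenite and 10.5 and 19.8 RPKM in the controls, so control 2 appears 1.88-fold above control 1. On each library's own total DDB2 had 18.6 and 18.1 RPKM with arsenite and 11.9 and 13.4 RPKM in the controls, a ratio of 1.13 between the controls. For BRCA1 the authors' deposited table gives 5.71 and 6.34 RPKM with arsenite and 11.7 and 7.06 RPKM in the controls, against 4.15 and 5.29 RPKM and 8.36 and 7.46 RPKM on own totals. For ATR it gives 2.29 and 2.79 RPKM with arsenite and 2.70 and 2.49 RPKM in the controls, so the groups overlap there, whereas on own totals ATR had 1.57 and 2.30 RPKM with arsenite and 3.28 and 2.78 RPKM in the controls. Over the 10 genes and 4 libraries, deposited values were 0.800 to 1.47 times those on own totals. Divisors in the table differ by up to 1.81-fold.

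Under the 10 identifiers the NIH3T3 columns hold at most 11 counts for 9 genes and 133 to 199 counts for ATR. These rows hold mouse genes that the table does not name, so they say nothing of repair genes in NIH3T3 cells.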
